A study of Homo sapiens with 6 samples.

Results

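The 8 genes described here encode the subunits of the m6A writer complex, the enzyme that places N6-methyladenosine on messenger RNA. They were chosen by symbol, as METTL3, METTL14, WTAP, KIAA1429, RBM15, RBM15B, ZC3H13 and CBLL1, and all 8 were found among the 57781 rows of the count table, KIAA1429 under its current symbol VIRMA. Their mRNA was measured by RNA sequencing in A549, a human cell line established from a lung adenocarcinoma. The study compared 3 libraries from cells carrying the vector alone, labelled wild type in genotype, with 3 libraries from METTL3 knockdown cells (shMETTL3). The knockdown was made by short hairpin RNA expressed from a pSuper-type plasmid. The hairpin sequence, and whether the knockdown cells were a single clone or a pool, are not given in the sources used here. No treatment or time point is given beyond the knockdown, and the cells of both groups were grown in the same medium. The labels number the libraries but do not say that they came from separate cultures, so the p-values measure the spread between these libraries, which may be technical. In such bulk libraries, fewer cells that express a gene and less of its RNA per cell cannot be told apart.

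METTL3 and METTL14 form the catalytic core of the complex. METTL3 binds the methyl donor S-adenosylmethionine and transfers the methyl group, and METTL14 holds the RNA and stabilises METTL3 but is not active itself. WTAP docks this core to a set of regulatory subunits. VIRMA is the large scaffold among them, ZC3H13 keeps the complex in the nucleus, RBM15 and RBM15B bind RNA and lead the complex to its targets, and CBLL1, also known as HAKAI, is a RING-type E3 ubiquitin ligase.

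The difference between the partners in the core can be read in their coding sequence, which is shown because METTL3 is the subunit targeted here and METTL14 its partner. In METTL3, codons 395 to 398 of the 580 codons of the canonical transcript spell the DPPW motif of an active methyltransferase. These codons lie in exon 6, and the stretch printed covers chr14:21968723-21968782 of GRCh37 on the minus strand. In METTL14, codons 192 to 195 of 456 spell EPPL in the same place of the fold, and the stretch printed covers chr4:119618383-119618442 on the plus strand, in exon 7. The capitals mark the 4 codons of each motif, and the sequences come from the GENCODE transcripts of that build.
METTL3: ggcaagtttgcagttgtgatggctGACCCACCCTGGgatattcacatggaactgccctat
METTL14: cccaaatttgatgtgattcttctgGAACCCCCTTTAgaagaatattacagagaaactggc

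The libraries held 14931426 to 19108928 counts, and levels are given as CPM, the usual library-scaled count, with the library sizes corrected by edgeR's TMM factors. On this scale 3 counts in a library stood at 0.150 to 0.189 CPM, and the lowest count of any subunit was 188, for RBM15 in vector replicate 3. All subunits were therefore measured far above the counting floor. Of the 5 epithelial markers KRT8, KRT18, KRT19, EPCAM and CDH1, all 5 were above 3 counts in every library. Their summed level was 8981 to 9591 CPM in the vector libraries and 3927 to 4323 CPM in the shMETTL3 libraries. CDKN2A, which is deleted in A549 cells, was at 0 to 0.315 CPM in the 6 libraries. The 5 fibroblast markers summed to 6.41 to 9.56 CPM in the vector libraries and 13.8 to 14.4 CPM in the shMETTL3 libraries. DCN and COL1A2 were at 0 in each vector library. Most of the sum was COL1A1, at 5.64 ± 1.44 CPM in the vector and 10.5 ± 0.452 CPM in the shMETTL3 libraries. COL1A1 was called higher (log2 fold change 0.90, adjusted p = 3.47e-06, edgeR). The 3 blood markers PTPRC, CD3E and HBB summed to 0.838 to 1.59 CPM in the vector and 0.0630 to 0.299 CPM in the shMETTL3 libraries, with CD3E at 0 throughout. Of the 3 endothelial markers listed, PECAM1 was not found among the counted genes. The others, CDH5 and VWF, summed to 0 to 0.123 CPM in the vector and 1.40 to 1.89 CPM in the shMETTL3 libraries. This was CDH5 alone, called higher with 0, 0 and 2 counts in vector and 30, 28 and 30 counts in shMETTL3 replicates 1, 2 and 3, and VWF was at 0 throughout. The part of these marker shifts in the results below was not tested.

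In METTL3-knocked down cells the subunits of the complex did not move as a block. METTL3 fell to 38.8% of its vector level, RBM15B and VIRMA fell by a smaller amount, WTAP rose 1.53-fold, and METTL14 and ZC3H13 rose slightly. RBM15 and CBLL1 were not called. Thus 6 of the 8 subunits were called, 3 higher and 3 lower, taking as called a Benjamini-Hochberg adjusted p below 0.05 over the 15125 genes tested by the quasi-likelihood F-test of edgeR. Of all genes tested, 66.6% were called in this comparison, 33.7% higher and 32.9% lower, so that the count of called subunits lay near that of genes at large. The median log2 fold change of the 8 subunits was 0.02, beside 0.0022 for all genes tested, and the median of its absolute value was 0.27, beside 0.41. For 6 of the 8 subunits the CPM ranges of vector and knockdown were apart, beside 69.4% of all genes tested. With a minimum absolute log2 fold change of 0.5, 2 of the 8 passed, METTL3 and WTAP, beside 39.1% of all genes.

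**Figure D1:**
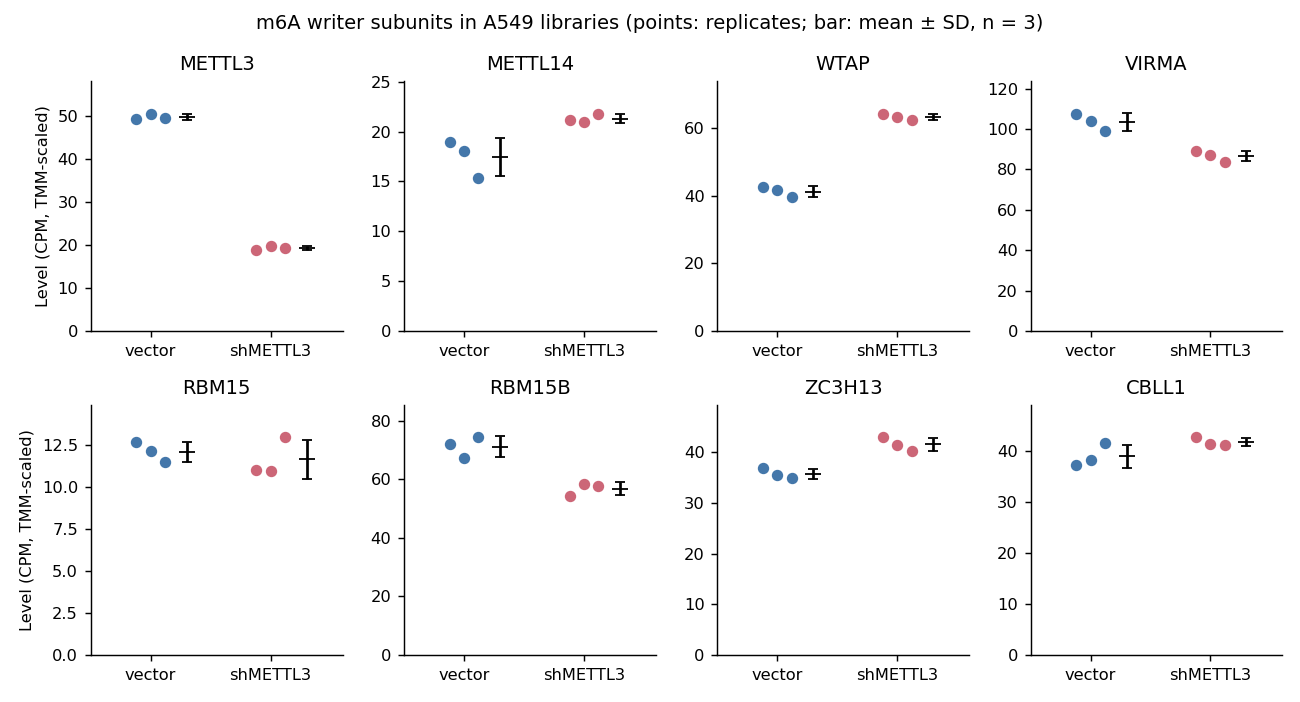
Level of each writer subunit in CPM (TMM-scaled, linear axes from 0), with 1 point for each library of the vector and shMETTL3 groups and the mean ± SD (n = 3) beside them. METTL3 drops from about 49.9 to 19.4 CPM, WTAP climbs from 41.2 to 63.2 CPM, and the groups share part of their range for RBM15 and CBLL1.

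METTL3, at chr14:21966277-21979484 on the minus strand of GRCh37, checks the knockdown. It stood at 49.4, 50.6 and 49.5 CPM in vector replicates 1, 2 and 3 and at 18.9, 19.9 and 19.3 CPM in shMETTL3 replicates 1, 2 and 3. All shMETTL3 libraries were below all vector libraries, and within each group the libraries lay within about 1 CPM of their mean. The log2 fold change was -1.36 (95% interval -1.50 to -1.23, adjusted p = 4.57e-16, edgeR). Among the 4977 genes called lower, 595 fell by more. An exact two-sided permutation of its 6 values returned p = 0.1, and 3 libraries against 3 can go no lower. Exons of TOX4 on the opposite strand share 388 bases with the exons of METTL3, or 6.62% of their merged length. Of the shared bases, 345 lie in the canonical METTL3 transcript, which is 1980 bases long. Whether reads were counted by strand is not given in the sources used here. The part of TOX4 reads in the METTL3 count was not tested. TOX4 itself had 81.6 ± 3.50 CPM in the vector and 77.2 ± 1.59 CPM in the shMETTL3 libraries (SD, n = 3 each), a log2 fold change of -0.08 that was not called (adjusted p = 0.202, edgeR).

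METTL14, at chr4:119606547-119636588 on the plus strand, is the partner with fewer counts in the vector libraries. Its level was 18.998, 18.02 and 15.4 CPM in vector replicates 1, 2 and 3 and 21.1, 21.0 and 21.8 CPM in shMETTL3 replicates 1, 2 and 3. The shMETTL3 libraries lay close together and above each vector library, of which replicate 3 was the lowest. The log2 fold change was 0.28 (95% interval 0.11 to 0.46, adjusted p = 0.00483, edgeR), a rise to 122% of the vector level. Without vector replicate 3 it was 0.19 (adjusted p = 0.0399, edgeR), the value nearest 0 among the alternatives tried.

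WTAP, at chr6:160146617-160177351 on the plus strand, had the largest rise among the subunits. It stood at 42.5, 41.7 and 39.5 CPM in vector replicates 1, 2 and 3 and at 64.2, 63.1 and 62.2 CPM in shMETTL3 replicates 1, 2 and 3. The gap between the groups was many times the spread within them. On the log2 scale WTAP rose by 0.62 (95% interval 0.49 to 0.74, adjusted p = 5.43e-10, edgeR), and 2580 of the 5090 genes called higher rose by more. SOD2, the mitochondrial superoxide dismutase, lies on the opposite strand and shares 437 bases with the merged exons of WTAP, or 6.81% of their length, but none with its canonical transcript. SOD2 was at 132 ± 6.97 CPM in the vector libraries and 526 ± 3.62 CPM in the shMETTL3 libraries (SD, n = 3 each), 3.98-fold higher. The part of SOD2 reads in the WTAP count was not tested. WTAPP1, a pseudogene of WTAP, had at most 4 counts in any library.

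VIRMA, the scaffold, was the subunit with the most counts. It stood at 108, 104 and 98.8 CPM in vector replicates 1, 2 and 3 and at 89.0, 87.0 and 83.9 CPM in shMETTL3 replicates 1, 2 and 3. The groups did not overlap, though the gap between them was close to the range of the vector libraries. VIRMA had a log2 fold change of -0.26 (95% interval -0.37 to -0.15, adjusted p = 0.000145, edgeR), a fall to 83.7% of the vector level. The call depended on scaling, since with library size alone the log2 fold change was -0.08 and the adjusted p 0.203 in the same test.

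ZC3H13, at chr13:46528600-46626894 on the minus strand, went the other way. Its level was 36.8, 35.4 and 34.9 CPM in vector replicates 1, 2 and 3 and 42.9, 41.3 and 40.3 CPM in shMETTL3 replicates 1, 2 and 3, without overlap. This was a log2 fold change of 0.22 (95% interval 0.09 to 0.35, adjusted p = 0.00384, edgeR). Exons of CPB2-AS1 on the opposite strand share 263 bases with ZC3H13, but CPB2-AS1 had at most 5 counts in a library.

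The paralogs RBM15 and RBM15B, which both lead the complex to RNA, had unlike values. RBM15B, at chr3:51428716-51435339 on the plus strand, stood at 71.9, 67.2 and 74.3 CPM in vector replicates 1, 2 and 3 and at 54.3, 58.3 and 57.8 CPM in shMETTL3 replicates 1, 2 and 3. The groups were apart, with no knockdown library reaching the vector range. The log2 fold change was -0.32 (95% interval -0.44 to -0.20, adjusted p = 2.03e-05, edgeR), a fall to 79.9% of the vector level. The single exon of RBM15B shares 1325 of its 6624 bases with exons of DCAF1 on the opposite strand. DCAF1 was at 40.9 ± 2.38 CPM in the vector and 38.4 ± 0.342 CPM in the shMETTL3 libraries (SD, n = 3 each) and was not called (log2 fold change -0.09, adjusted p = 0.207, edgeR).

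RBM15, at chr1:110881128-110889303 on the plus strand, was the subunit with the fewest counts. It stood at 12.7, 12.2 and 11.5 CPM in vector replicates 1, 2 and 3 and at 11.03, 10.97 and 13.0 CPM in shMETTL3 replicates 1, 2 and 3. The groups overlapped, and shMETTL3 replicate 3 was the highest of all 6 libraries. Its log2 fold change was -0.06, with a 95% interval of -0.27 to 0.15 (adjusted p = 0.592, edgeR). It was 0.11 with library size alone, so no direction is given. Whether RBM15 and RBM15B differed in their change was not tested. SPEN, their larger paralog, which is not a writer subunit, was at 71.3 ± 6.94 CPM in the vector and 62.9 ± 6.60 CPM in the shMETTL3 libraries (SD, n = 3 each). Its log2 fold change of -0.18 was called (adjusted p = 0.0293, edgeR) but its groups overlapped, and with library size alone the value was -0.0027. Exons of RBM15-AS1 on the opposite strand share 175 bases with RBM15, none in its canonical transcript, and RBM15-AS1 had at most 13 counts in a library.

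CBLL1, at chr7:107383518-107402112 on the plus strand, stood at 37.2, 38.2 and 41.5 CPM in vector replicates 1, 2 and 3. The shMETTL3 libraries stood at 42.6, 41.4 and 41.2 CPM in the same order, above vector replicates 1 and 2 but around replicate 3. The log2 fold change was 0.10, with a 95% interval of -0.03 to 0.23 (adjusted p = 0.169, edgeR), so that a rise of the size seen for WTAP lay outside the interval. Without vector replicate 3 it was 0.14 and was called (adjusted p = 0.0435, edgeR), and with library size alone it was 0.28 (adjusted p = 0.000536). CBLL2, a close homolog of CBLL1, had 0 counts in each library. CBLL1-AS1, on the opposite strand, shares 442 bases with the merged exons of CBLL1 and was not analysed here.

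Scaling bears on the small changes. The TMM factors were 0.920 to 0.953 in the vector and 1.051 to 1.07 in the shMETTL3 libraries. Leaving them out lifted the median over all genes by 0.17 on the log2 scale. The log2 fold changes became -1.19 for METTL3, 0.79 for WTAP, 0.46 for METTL14, 0.39 for ZC3H13 and -0.15 for RBM15B, all still called. The split of called subunits was then 4 higher and 2 lower, and among all called genes 65.8% were higher, beside 50.6% under TMM. METTL3, METTL14, WTAP, RBM15B and ZC3H13 were called, in the same direction, under each of the 14 alternative fits.

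**Figure D2:**
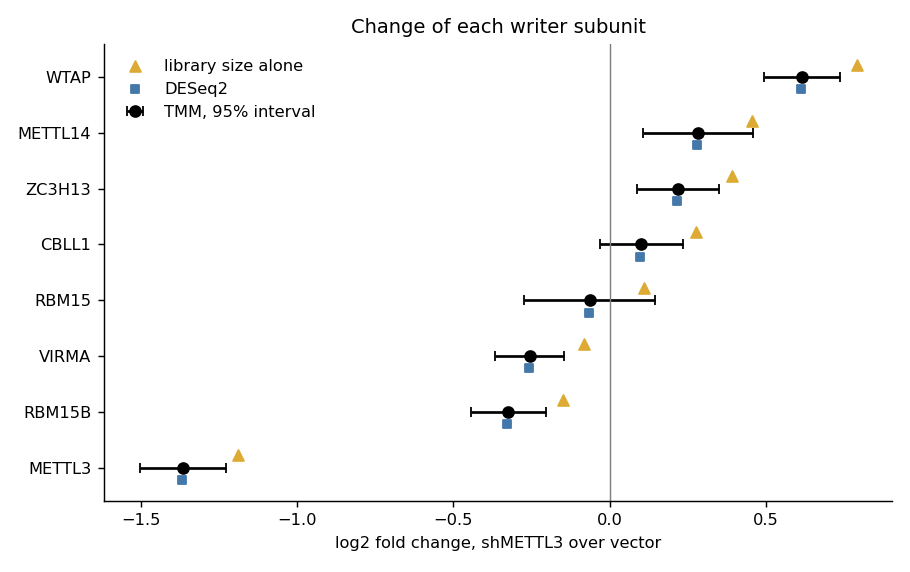
Log2 fold change of each writer subunit, shMETTL3 over vector, under TMM scaling with its 95% interval (black, edgeR), with scaling by library size alone (triangles) and from DESeq2 (squares). The interval of METTL3 lies at -1.50 to -1.23, far from those of the other subunits, and library size alone shifts each value to the right by about 0.17.

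Ratios of subunits within a library do not depend on scaling between libraries. In counts, not divided by gene length, METTL3 had 2.60, 2.81 and 3.22 for each count of METTL14 in vector replicates 1, 2 and 3. It had 0.892, 0.948 and 0.887 in shMETTL3 replicates 1, 2 and 3. The ratio to METTL14 was thus 3.14-fold lower in the knockdown, from the fall of METTL3 and the rise of METTL14 together. The ratio of METTL3 to WTAP was 1.16, 1.22 and 1.253 in vector replicates 1, 2 and 3 and 0.294, 0.315 and 0.311 in shMETTL3 replicates 1, 2 and 3, 3.93-fold lower and the largest shift of the 7 ratios. The smallest shift was that to RBM15B, 2.05-fold lower. For each of the 7 other subunits, the log2 ratio in every shMETTL3 library was below that in every vector library. The same count was not made for genes at large. All 7 ratios share the METTL3 count, so they are not separate results about the other subunits. Exact two-sided permutation returned p = 0.1 for each, also 0.1 when adjusted over the 7 ratios, which is the smallest value that this design allows.

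**Figure D3:**
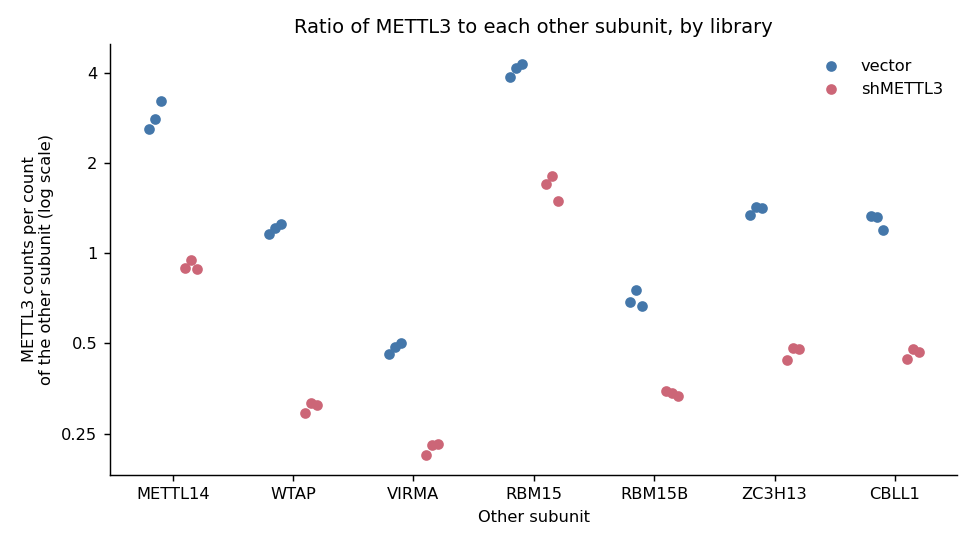
Counts of METTL3 for each count of another writer subunit, on a log axis, with 1 point for each library of the vector and shMETTL3 groups. In all 7 ratios, which share the METTL3 count, the shMETTL3 libraries lie below the vector libraries. METTL3 passes from above 2 to below 1 count for each count of METTL14, without division by gene length.

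Per kilobase of merged exons, the order of the subunits was altered. In the vector libraries RBM15B was highest, at 10.7 ± 0.542 CPM per kilobase (SD, n = 3), before VIRMA at 9.60 ± 0.409, METTL3 at 8.50 ± 0.115, CBLL1 at 7.14 ± 0.415 and WTAP at 6.43 ± 0.239. ZC3H13 followed at 3.48 ± 0.0978, RBM15 at 2.60 ± 0.126 and METTL14 at 2.55 ± 0.273 CPM per kilobase. Only RBM15 and METTL14 overlapped among neighbours in this order. In the shMETTL3 libraries WTAP was highest, at 9.85 ± 0.155 CPM per kilobase, and METTL3 had moved from rank 3 to rank 6, at 3.30 ± 0.0896, next to METTL14 at 3.12 ± 0.0623. RBM15B and VIRMA overlapped there, as did VIRMA and CBLL1. The share of METTL3 in the summed level of the 8 subunits was 16.7% ± 0.394 in the vector and 7.01% ± 0.189 in the shMETTL3 libraries, and that of WTAP was 12.6% ± 0.382 and 20.9% ± 0.292 (SD, n = 3 each). Order and shares depend on which transcripts are taken as the length, and so does the closeness of METTL3 to METTL14. In the shMETTL3 libraries METTL3 stood at 7.67 and METTL14 at 3.21 CPM per kilobase with the longest transcripts. With the canonical transcripts they stood at 9.78 and 3.21. With the longest transcripts, METTL3 had rank 1 in the vector and rank 5 in the shMETTL3 libraries, with shares of 25.5% ± 0.513 and 11.2% ± 0.317. WTAP then had rank 3 and rank 1, with shares of 14.6% ± 0.398 and 25.2% ± 0.272 (SD, n = 3 each). With the canonical transcripts, METTL3 had rank 1 in the vector and rank 4 in the shMETTL3 libraries, and WTAP had rank 2 and then rank 1. The share of METTL3 was then 27.4% ± 0.540 and 11.6% ± 0.335, and that of WTAP 21.3% ± 0.533 and 35.7% ± 0.366 (SD, n = 3 each), an alternative chosen after the data were seen.

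**Figure D4:**
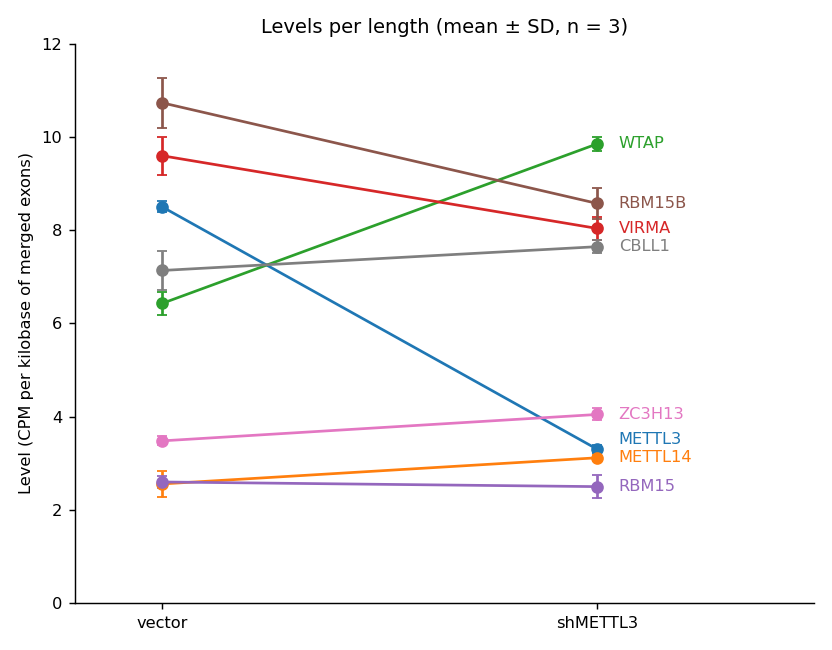
Level of each writer subunit in CPM per kilobase of merged exons, mean ± SD over the 3 vector and the 3 shMETTL3 libraries, joined by a line for each gene. The line of METTL3 falls from 8.50 to 3.30 and ends beside METTL14, and that of WTAP rises from 6.43 to 9.85, above all others. With the longest or the canonical transcripts as the length, METTL3 stays above METTL14 in the shMETTL3 libraries.

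METTL14 and ZC3H13, which both rose slightly, both hold an ETS-type motif and a CCAAT box among the 6 short motifs searched on both strands of their promoters. The CCAAT box is not particular to them, being in 6 of the 7 subunits searched, METTL3 among them. A link between motifs and changes was not tested. The ETS-type motif CCGGAAGT occurs 2 times in the METTL14 window and 1 time in the ZC3H13 window, from 250 bases before to 50 after the transcript start, and in none of the other 5 subunits that were found in the RefSeq promoter table. Only exact matches were counted, and CCGGAAG followed by another base is also in the METTL3 and CBLL1 windows. Of all 35116 promoters in the RefSeq promoter table, 4.14% hold CCGGAAGT. WTAP, the subunit with the largest rise, lacks it and has 6 copies of the GC box GGGCGG over its 2 annotated starts, a motif held by 45.0% of all promoters. The GC box is also in RBM15B, which fell, with 3 copies, and in RBM15 and CBLL1, which were not called, with 3 copies and 1 copy. The CRE motif TGACGTCA was found in none of the 7, the CCAAT box in 6, TATAAA in METTL3 alone and AAGATGGC in RBM15B alone, beside 1.85%, 34.6%, 11.5% and 2.89% of all promoters. A match is a description of these letters and not of a bound factor. The windows of METTL14 and ZC3H13 are shown because they hold the ETS-type motif. They are printed up to 20 bases after the start, from RefSeq on GRCh38.p14, as chr4:118685142-118685411 on the plus strand and chr13:46052727-46052996 on the minus strand, and the capitals mark ETS-type motifs and CCAAT boxes on either strand.
METTL14: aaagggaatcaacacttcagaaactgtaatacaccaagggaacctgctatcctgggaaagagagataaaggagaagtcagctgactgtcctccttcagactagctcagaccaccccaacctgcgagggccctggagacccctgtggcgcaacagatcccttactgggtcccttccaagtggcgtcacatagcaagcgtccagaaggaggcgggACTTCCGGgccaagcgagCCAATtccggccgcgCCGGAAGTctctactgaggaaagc
ZC3H13: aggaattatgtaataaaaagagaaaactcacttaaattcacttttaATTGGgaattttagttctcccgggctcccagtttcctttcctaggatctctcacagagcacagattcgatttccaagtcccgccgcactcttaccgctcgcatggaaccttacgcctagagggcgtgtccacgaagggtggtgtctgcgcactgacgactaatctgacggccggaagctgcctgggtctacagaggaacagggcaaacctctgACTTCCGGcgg

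The chromosomal surroundings of the subunits were compared as a description. Around each subunit, the 20 nearest tested genes had a median log2 fold change between -0.19, around METTL14, and 0.23, around CBLL1. METTL14 itself was at 0.28, and the 20 genes around METTL3 had a median of -0.10 and those around WTAP one of -0.03. Among 11076 other genes with an average log2 CPM of at least 2, the pattern of METTL3 over the 6 libraries was close to those of ACSS2 and CCNB2, each with a Euclidean distance of 0.090 between the deviations of log2 CPM from the gene's mean. Their log2 fold changes were -1.33 and -1.39, so that the likeness is mostly one of the size of the group difference.

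Among genes that act beside the writer complex, 26 of the 28 listed were tested and 15 were called, 5 higher and 10 lower. Of all genes tested, 66.6% were called, 33.7% higher and 32.9% lower. With library size alone 20 of the 26 were called, 12 higher and 8 lower, beside 67.8% of all genes, 44.6% higher and 23.2% lower. The balance of the list thus depends on the scaling, and nothing particular to the list is read from its count. Their median log2 fold change was -0.01. Of the other RNA adenosine methyltransferases and their cofactors, 3 of 6 were called, all of them lower, beside 66.6% of all genes called and 32.9% called lower. With library size alone 4 were called, 2 higher (METTL16 and ZCCHC4) and 2 lower (TRMT112 and PCIF1), beside 44.6% and 23.2% of all genes under that scaling. TRMT112, the cofactor that stabilises METTL5 among other methyltransferases, fell from 164 ± 8.41 to 105 ± 3.27 CPM, a log2 fold change of -0.65 (adjusted p = 2.48e-11, edgeR). PCIF1, which methylates the cap-adjacent adenosine, fell from 44.1 ± 3.52 to 27.6 ± 0.609 CPM, at -0.68 (adjusted p = 2.38e-09, edgeR). METTL5, which methylates ribosomal RNA, was called at -0.17 (adjusted p = 0.0419, edgeR) though its groups overlapped, and was at 0.0039 with library size alone. METTL16, which methylates U6 small nuclear RNA and MAT2A mRNA, was at 54.9 ± 3.38 and 57.4 ± 4.32 CPM and was not called (adjusted p = 0.386, edgeR). With library size alone it was called higher, at 0.24 (adjusted p = 0.00176, edgeR).

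The 3 tested genes of S-adenosylmethionine metabolism were all called, 1 higher and 2 lower, beside 66.6% of all genes called, 33.7% higher and 32.9% lower. MAT2A, the enzyme that makes S-adenosylmethionine in most tissues, had 415, 416 and 409 CPM in vector replicates 1, 2 and 3 and 951, 955 and 936 CPM in shMETTL3 replicates 1, 2 and 3. The groups were far apart, with a log2 fold change of 1.20 (adjusted p = 5.41e-18, edgeR), a 2.29-fold rise. MAT2B, the regulatory subunit of the same enzyme, fell with a log2 fold change of -0.47 (adjusted p = 3.27e-08, edgeR), and AHCY, which removes the S-adenosylhomocysteine left after methyl transfer, with one of -0.70 (adjusted p = 2.98e-12, edgeR). Both remained negative with library size alone, at -0.29 and -0.52. MAT1A, the liver form, had 2 to 12 counts in a library and was not tested.

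Of the demethylases, ALKBH5 rose with a log2 fold change of 0.24 (adjusted p = 0.000351, edgeR), or 0.41 with library size alone, while FTO was at 29.1 ± 1.85 and 31.5 ± 1.76 CPM (SD, n = 3 each) and was not called. With library size alone FTO was called higher, at 0.29 (adjusted p = 0.00145, edgeR). Of the 15 m6A readers listed, 14 were tested and 7 were called, 3 higher and 4 lower, again beside 66.6% of all genes. With library size alone 11 were called, 7 higher and 4 lower, since YTHDF3, YTHDC2, HNRNPC and FXR2 were then called higher, beside 67.8% of all genes called under that scaling, 44.6% higher and 23.2% lower. IGF2BP3, the reader that the study is about, had 29.3, 28.7 and 28.9 CPM in vector replicates 1, 2 and 3 and 16.0, 12.3 and 14.8 CPM in shMETTL3 replicates 1, 2 and 3. Its log2 fold change was -1.02 (adjusted p = 4.92e-11, edgeR), and that of IGF2BP2 was -0.75. FMR1 had the largest rise of the readers, with a log2 fold change of 0.84 (adjusted p = 4.48e-11, edgeR). YTHDC1, a nuclear reader that most cells express, was listed with 0 counts in each library and was not tested. Whether this row reflects the counting or the cells was not tested, so the 0 is not read as a lack of expression.

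**Figure D5:**
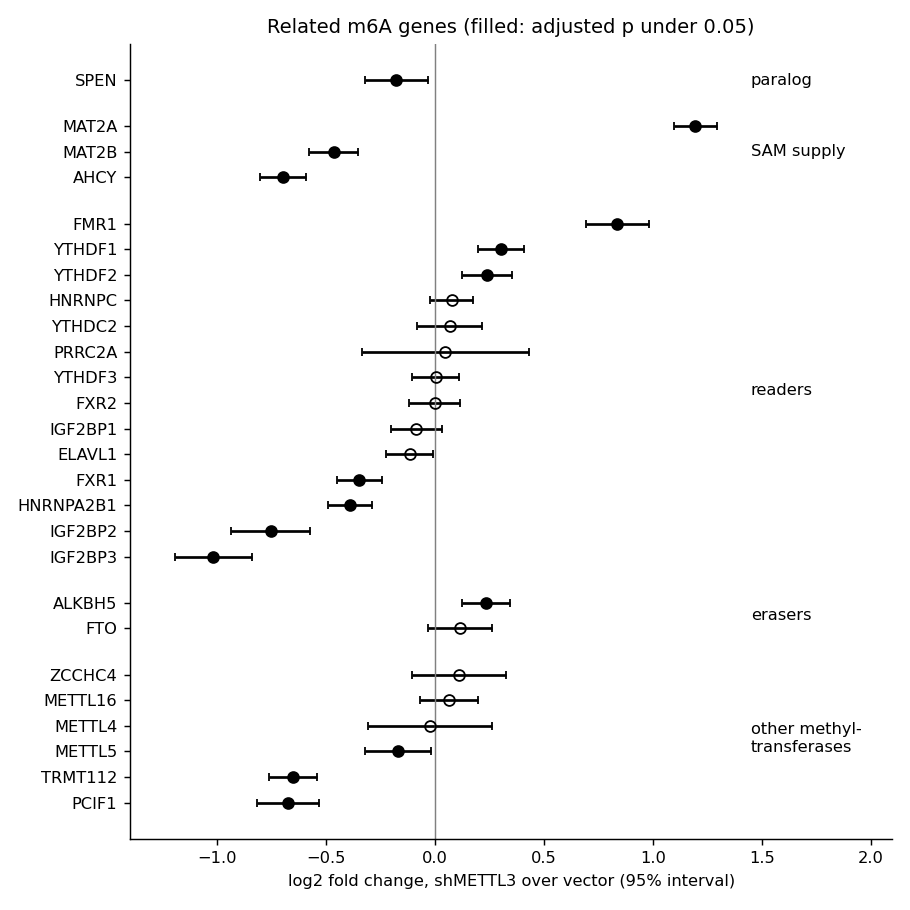
Log2 fold change with its 95% interval, shMETTL3 over vector, for the 26 tested genes related to m6A, grouped by role (filled points have an adjusted p under 0.05 in edgeR's test). MAT2A lies furthest to the right, at 1.20, and IGF2BP3 furthest to the left, at -1.02.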

How the data were processed

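RNA was sequenced from 3 vector and 3 shMETTL3 libraries of A549 cells. For the deposited table, the authors aligned reads with HISAT2 (build hg19) and counted reads over genes with htseq. The submitters' processing notes name HISAT2 2.2.1, HTSeq 0.13.5, cutadapt 3.0 and SAMtools 1.13, and the paper's methods give other versions of HISAT2 and htseq. The deposited values are raw counts per gene and library, with a column for each library. The annotation and strand setting are not given in the sources used here.

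Counts were scaled by TMM, filtered by filterByExpr and tested by glmQLFit and glmQLFTest in edgeR 4.0.16 (R 4.3.3), with the group as the single term. Of 57781 rows, 15125 were tested, and p-values were adjusted over them by the Benjamini-Hochberg method. The 95% intervals come from the coefficient and the F statistic. Exact permutation tests used log2(CPM + 0.1). The alternatives were RLE, upper-quartile and library-size scaling, no filter, a minimum of 10 counts in all libraries, limma-voom (limma 3.58.1), DESeq2 1.42.0, a replicate block and each library left out. Exons came from GENCODE on GRCh37, the build of hg19. The fit was also run on simulated data with 200 changed genes and a single dispersion. Among 14894 genes, edgeR there recovered 25 of 50 genes changed 1.25-fold and 45 of 48 changed 2-fold. In the data 66.6% of genes were called, so these figures are not the sensitivity of this comparison.

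The named genes are the 8 subunits, a list of 28 related m6A genes, genes whose exons overlap a subunit, copies of subunits and the 3 genes nearest to METTL3 in pattern, of which 1 is not reported here. The subunits and lists were chosen with earlier results of these data known.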

Additional observations from a re-analysis of the deposited data

How the results depend on the processing

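The count of called subunits stayed at 6 of 8 under each alternative scaling, filter and test and with an adjusted p under 0.01, and it was 2 with a minimum absolute log2 fold change of 0.5. Leaving out a library gave 6 or 7. With scaling by library size alone, VIRMA was no longer called at -0.082 (adjusted p = 0.203), RBM15 turned to 0.11 (adjusted p = 0.362) without being called in either case, and CBLL1 was called at 0.28 (adjusted p = 0.000536), because that scaling lifts the median of all genes by 0.17. Leaving out a library put CBLL1 between 0.061 and 0.14, and it was called without vector replicate 3. The order of levels per length moved most with the transcripts used: with the longest transcript 4 subunits changed rank in the vector and 5 in the shMETTL3 libraries, and with the canonical transcript, added after the data were seen, 5 and 7. The ratios of METTL3 to the other subunits kept their direction and moved by less than the larger of their group SDs with a pseudocount of 1 and with each library left out. With a replicate block, 6 of 8 subunits and 10111 of all genes were called, beside 10067 without it. Deviations of libraries with the same number had correlations of 0.051, -0.0057 and 0.033, so the numbers were not taken to pair the libraries, and not every library correlated best with its own number. Counting depth limits RBM15 most, with 188 to 228 counts in a library.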
